A study of Mus musculus with 9 samples.

Results

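The normal constructs of this series are 3 engineered muscles, each sequenced as 1 library, of 9 libraries in all. They were chosen by their titles, which call them normal, and their libraries are named normal 1, normal 2 and normal 3 by the replicate number of the title. Wild-type C2C12 myoblasts, an established mouse line able to fuse into contractile myotubes, were cast in a matrix derived from muscle tissue. The constructs received no irradiation and were kept for 2 days in growth medium with fetal bovine serum and then for 10 days in differentiation medium with 10% equine serum. All other libraries of the series shared the line, the matrix and the media. As a model, the group is limited to a single cell line, and the matrix is itself a tissue product. The design text places pairs of like constructs in 1 dish and counts 2 normal constructs where the titles describe 3 biological replicates, so some of the 3 may have shared a dish. All 3 were used, and the spread given below is that between these 3 libraries.

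Skeletal muscle is built by myoblasts that leave the cell cycle under myogenic regulatory factors, MyoD and Myf5 acting early and myogenin late, and fuse into multinucleated fibres. Young fibres assemble sarcomeres from embryonic and cardiac-type isoforms of myosin, actin and troponin. Maturing fibres replace these with adult fast or slow isoforms, and muscle forms of metabolic enzymes and calcium-handling proteins accumulate at the same time. Which member of each gene family supplies the RNA is therefore a common way to place cultured muscle between the myoblast and the adult fibre.

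The cells carried the markers of their label. Values are written throughout in the order normal 1, normal 2 and normal 3, as counts scaled to 1000000 counts of the library (CPM), and they are not divided by gene length because the kit reads transcript ends. Myog, which encodes myogenin, stood at 183, 344 and 110 CPM. Myh3, the embryonic myosin heavy chain, stood at 141, 251 and 54.5 CPM. Tnni1, the slow troponin I that early fibres also make, stood at 216, 354 and 61.3 CPM. Actn2, a sarcomeric alpha-actinin of the Z-disc, stood at 33.5, 20.5 and 234 CPM. All 4 were detected in every library, with Myog, Myh3 and Tnni1 lowest in normal 3 on this scale and Actn2 highest there.

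Normal 3 stood apart from normal 1 and normal 2 before any single gene was considered, and each result below is given with its value in every library for that reason. The most abundant 185 symbols supplied 50% of all counts in normal 1, 134 symbols did so in normal 2 and 13 in normal 3. Library totals were 5046197, 4840993 and 6607557 counts. At least 1 count was found for 12638, 14159 and 11329 of the 40879 symbols listed. At an equal depth of 4840993 counts the expected numbers were 12622, 14159 and 11221, so the order was the same at equal depth. Normal 3 was also the only library with counts of Y-linked genes, given below with markers of other cell types. Whether it holds RNA of another tissue or sample was not tested, and this bears on each of its values and on every mean of 3 libraries. In all, 16588 symbols had a count in any library and 9129 in all 3, and of the 4179 found in 1 library only, the highest reached 46.9 CPM.

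The 300 bases around the RefSeq start site (250 before, 50 after, build GRCm38.p6, coding strand, 5′ to 3′) are shown for 4 genes that mark the ends of this range. Myog and Myh3 belong to the early programme, and Myh4, the fast IIB myosin heavy chain, and Tnnc2, the fast troponin C, had the highest mean levels among the adult fast genes, a lead that rests on normal 3, since Acta1 was above both in normal 1 and normal 2. Capitals mark every match, on either strand, to the E-box CANNTG bound by myogenic factors and to the CArG box bound by serum response factor. Matches on either strand to TATAAA and to a strict form of the MEF2 motif are marked as well. Looser variants of the MEF2 motif were not searched and stay in lower case. A window without a MEF2 match, such as that of Myog, may therefore still hold a MEF2 site. The Myog window is chr1:134289754-134290053 on the plus strand, Myh3 is chr11:67078050-67078349 on the plus strand, Myh4 is chr11:67237562-67237861 on the plus strand and Tnnc2 is chr2:164779685-164779984 on the minus strand.
Myog: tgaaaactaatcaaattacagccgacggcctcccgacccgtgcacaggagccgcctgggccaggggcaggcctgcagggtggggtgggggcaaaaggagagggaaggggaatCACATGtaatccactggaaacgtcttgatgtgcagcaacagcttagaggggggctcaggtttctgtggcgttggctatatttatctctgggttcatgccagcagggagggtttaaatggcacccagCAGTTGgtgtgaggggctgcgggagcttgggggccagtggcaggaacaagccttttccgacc
Myh3: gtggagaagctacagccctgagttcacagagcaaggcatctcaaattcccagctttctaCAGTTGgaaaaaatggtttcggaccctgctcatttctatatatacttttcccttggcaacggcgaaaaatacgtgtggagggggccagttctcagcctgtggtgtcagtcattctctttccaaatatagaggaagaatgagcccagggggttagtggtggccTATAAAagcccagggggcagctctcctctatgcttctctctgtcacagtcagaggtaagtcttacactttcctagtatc
Myh4: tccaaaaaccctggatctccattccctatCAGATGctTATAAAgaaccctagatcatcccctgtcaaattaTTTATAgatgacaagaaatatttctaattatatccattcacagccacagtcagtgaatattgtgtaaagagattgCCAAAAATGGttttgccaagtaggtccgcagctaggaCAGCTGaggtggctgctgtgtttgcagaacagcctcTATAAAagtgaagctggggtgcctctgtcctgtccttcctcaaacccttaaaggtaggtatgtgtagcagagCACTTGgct
Tnnc2: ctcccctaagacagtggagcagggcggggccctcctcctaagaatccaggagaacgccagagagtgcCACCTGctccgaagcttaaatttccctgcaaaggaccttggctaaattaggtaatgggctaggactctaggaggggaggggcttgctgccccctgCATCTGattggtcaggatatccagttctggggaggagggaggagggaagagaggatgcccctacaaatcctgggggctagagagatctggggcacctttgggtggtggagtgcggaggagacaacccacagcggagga
Myog held 2 E-boxes, Myh3 held 1 E-box and 1 TATAAA, Myh4 held 3 E-boxes, 1 CArG box and 3 TATAAA matches, and Tnnc2 held 2 E-boxes. Over 32851 promoters of the same length, 72.3% held an E-box, 1.63% a CArG box and 13.6% TATAAA. The strict form of the MEF2 motif was held by 0.557% of them, and no match overlapped another here. An E-box in these windows is thus a common feature of promoters, and the matches describe letters, not bound sites.

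A single predicted gene symbol, Gm26917, took the largest share of any symbol in normal 1 and normal 2. Which RNA its reads come from was not tested. It held 23.9%, 27.4% and 9.47% of all counts (mean 20.2% ± 9.49, SD, n = 3). Mitochondrial ribosomal RNAs held 3.47%, 4.25% and 5.15%. Other mitochondrially encoded genes held 2.30% and 2.75% in the first pair of libraries and 24.5% in normal 3 (mean 9.86% ± 12.7, SD, n = 3). Together the counted genes of the mitochondrial genome supplied 5.77%, 7.0% and 29.7% of counts. Of the 35 symbols other than ribosomal RNAs, 19 had a count in any library.

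Muscle-specific RNA showed the same division. The 91 contractile and calcium-handling genes listed for this report held 1.64%, 2.14% and 21.3% of counts (mean 8.35% ± 11.2, SD, n = 3). Matrix genes and matrix enzymes held 4.35%, 3.10% and 1.87%. Cytosolic ribosomal protein genes held 2.55%, 3.01% and 1.39%, and named long non-coding RNAs, counted without Gm26917, held 1.61%, 1.43% and 1.20%. In normal 1 and normal 2, then, matrix genes outweighed contractile genes, whereas in normal 3 contractile genes outweighed matrix genes. The exact binomial 95% interval of a class share was at most 0.0888 percentage points wide, which covers counting error only, because reads without molecular identifiers are not independent molecules.

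**Figure D1:**
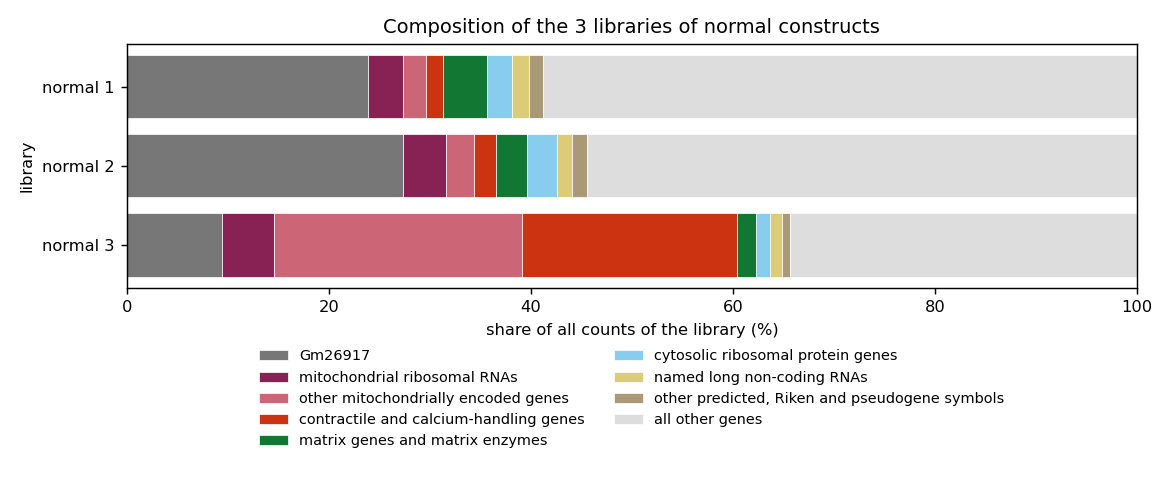
Share of all counts (%, horizontal axis) taken by 9 gene classes in each library of normal constructs (vertical axis). Normal 1 and normal 2 look alike, with Gm26917 at 23.9% and 27.4%, while in normal 3 other mitochondrial genes (24.5%) and contractile genes (21.3%) fill the space.

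All CPM values are shares of 1 total, so they are tied to these classes. Counts outside Gm26917, the mitochondrial genome and the contractile class made up 68.7%, 63.5% and 39.6% of the libraries. Among the 2612 symbols of at least 50 CPM on average, the median log2 difference was -0.90 between normal 3 and normal 1, -0.73 between normal 3 and normal 2 and -0.09 between normal 2 and normal 1. Of the 2595 named genes among them, 77.1% were lowest in normal 3. By contrast, 52.6% of the 2595 were highest in normal 1, 36.2% in normal 2 and 11.1% in normal 3. These shares are the ones to set beside the later counts of list members highest in a library. Some list members lie below that abundance. Levels are therefore also given per count of the remaining genes where a direction rests on the scale.

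The abundance ranking of the 3 libraries combined mixed mitochondrial, contractile and matrix RNA. Of the 20 symbols with the highest mean, 6 were mitochondrial and 7 contractile. ND4, a subunit of respiratory complex I, followed Gm26917 with 6481, 8200 and 138777 CPM. ND2, another complex I subunit, stood at 10006, 11925 and 56108 CPM. ND1 reached 2121, 2620 and 25247 CPM and CYTB, cytochrome b of complex III, reached 2173, 2696 and 21706 CPM. The 2 ribosomal RNAs of the mitochondrion differed less between libraries, with mt-Rnr2 at 22372, 28576 and 38313 CPM and mt-Rnr1 at 12282, 13913 and 13176 CPM.

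The contractile entries of the top 20 encoded fast fibre proteins, skeletal actin, tropomyosin or titin, and all were highest in normal 3. Myh4 stood at 826, 1340 and 28492 CPM. Tnnc2 stood at 1023, 1470 and 27874 CPM. Acta1, skeletal alpha-actin, had 1328, 1982 and 18428 CPM, Tpm1, an alpha-tropomyosin, had 1092, 1518 and 19738 CPM, and Ttn, the giant spring protein titin, had 1689, 1722 and 17199 CPM. Tnnt3, fast troponin T, reached 702, 929 and 12817 CPM and Myl1, the fast essential light chain, 431, 669 and 10476 CPM. By rank, Myh4 was number 74 in normal 1, number 34 in normal 2 and number 5 in normal 3.

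The remaining entries were high in all 3 libraries and belonged to secreted, matrix and long non-coding RNA. Saa3, an acute-phase serum amyloid, stood at 12658, 6795 and 4788 CPM. Dcn, the small matrix proteoglycan decorin, had 10575, 5468 and 3936 CPM, Col3a1, a fibrillar collagen chain, had 6168, 3726 and 2075 CPM, and Sparc, a collagen-binding matrix protein, had 4895, 3758 and 2294 CPM. Malat1, a nuclear long RNA, held 9657, 6641 and 8128 CPM, and H19, an imprinted long RNA abundant in differentiating muscle, held 4584, 6459 and 2743 CPM.

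The top 20 lists of normal 1 and normal 2 shared 17 symbols, those of normal 1 and normal 3 shared 6, and those of normal 2 and normal 3 shared 8. Only 6 symbols were in the top 20 of every library. A ranking by the mean of normal 1 and normal 2 alone kept 13 of the 20.

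**Figure D2:**
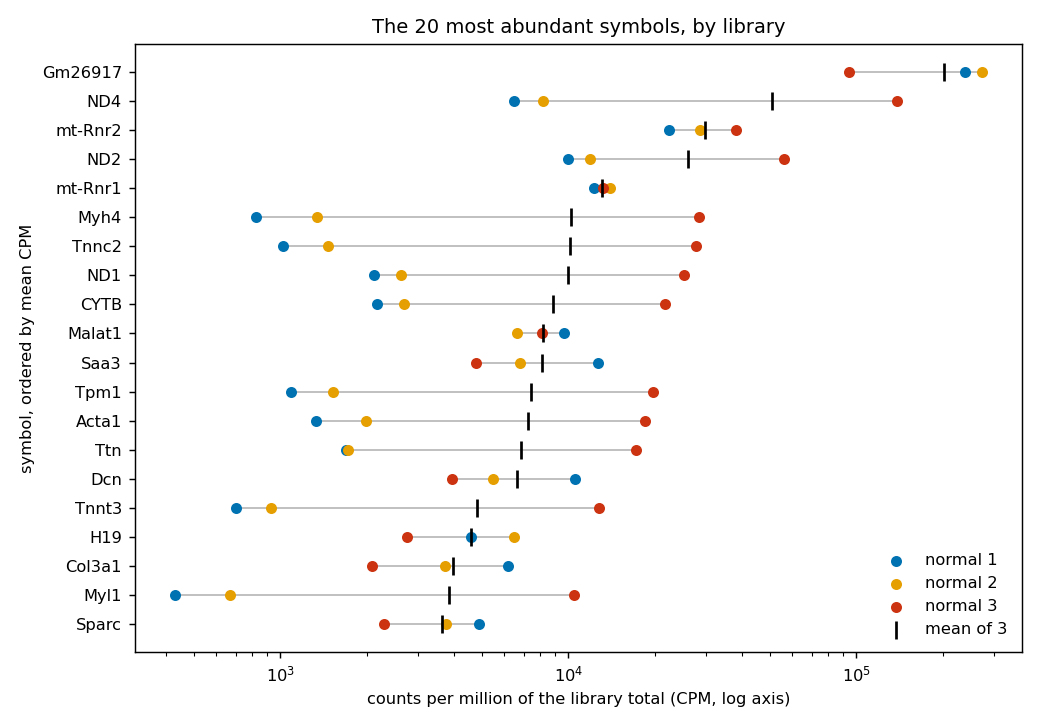
CPM (log axis) of the 20 most abundant symbols in each of the 3 libraries, ordered by mean CPM, with dots for libraries and black ticks for means. Contractile genes and ND4 lie far to the right in normal 3, for example Myh4 at 28492 against 826 and 1340 CPM, while mt-Rnr1 and Malat1 differ little.

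Adult fast fibre genes were higher in normal 3 as a whole list and not through a few members. The list of 24 genes summed to 8169, 11713 and 152749 CPM, and all 24 members were highest in normal 3. The member ratios of normal 3 to normal 1 had a median of 16.5 (range 4.44 to 34.5), and those to normal 2 a median of 15.4 (range 3.11 to 29.6). Among named genes of at least 50 CPM on average, 33 of 2595 (1.27%) were more than 10-fold above the higher of the other libraries in normal 3, and no gene was in normal 1 (0%) or normal 2 (0%). Of the 23 fast fibre genes of that abundance 14 were among these 33. The list was chosen with earlier results of these data known, so these counts describe it and are no independent support. The 6 with the highest ratio were Myh4 and Tnnc2, given above, Myl3, the ventricular and slow essential light chain, at 35.7, 48.3 and 1271 CPM, Myoz1, a Z-disc partner of calcineurin, at 36.3, 37.0 and 844 CPM, Pvalb, the calcium buffer parvalbumin of fast fibres, at 226, 341 and 6940 CPM, and Mylk2, the skeletal myosin light chain kinase, at 9.31, 10.3 and 198 CPM.

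Genes of the Z-disc and of titin's partners followed, with 2927, 3180 and 29043 CPM in sum and 23 of 25 members highest in normal 3. Neb, the thin-filament ruler nebulin, had 511, 554 and 5806 CPM, Tcap, the cap of titin at the Z-disc, had 53.9, 85.1 and 1363 CPM, and Myom1, an M-band protein, had 57.9, 65.3 and 838 CPM. Calcium handling and excitation genes summed to 1671, 1905 and 15706 CPM, with 15 of 23 members highest in normal 3 and a median ratio of normal 3 to normal 1 of 4.0 over the 19 members above 3 counts in normal 1 and normal 2. Atp2a1, the calcium pump of fast fibres, stood at 340, 486 and 7894 CPM, Trdn, the junctional protein triadin, at 115, 224 and 3061 CPM and Ryr1, the calcium release channel, at 93.9, 119 and 2207 CPM. By CPM, Cacna2d1, a calcium channel subunit, was 1 of 5 members highest in normal 1, with 295, 185 and 196 CPM. Per count of the remaining genes Cacna2d1 was highest in normal 3 instead. Sln, the pump inhibitor sarcolipin, had no count in any library, where 0 counts allow up to 0.595, 0.620 and 0.454 CPM.

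Slow and cardiac-type genes were mixed. Their sum was 1593, 2033 and 5372 CPM, and 8 of 14 members were highest in normal 3. Mb, the oxygen store myoglobin, carried most of the difference with 146, 257 and 2898 CPM. Tnnc1, the slow and cardiac troponin C, ran the other way at 492, 472 and 236 CPM, also as CPM of the remaining counts (717, 743 and 597). Tpm3, a slow tropomyosin, had 212, 283 and 169 CPM, and with 309, 445 and 426 CPM of the remaining counts it was lowest in normal 1 on that scale.

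Developmental sarcomere genes were lowest in normal 3 in sum. The 8 members summed to 1220, 1652 and 567 CPM, and to 0.178%, 0.260% and 0.143% of the remaining counts. None of the 8 was highest in normal 3 by CPM, where only 11.1% of the 2595 named genes were. Tnnt2, the cardiac and embryonic troponin T, stood at 270, 254 and 102 CPM, Actc1, cardiac alpha-actin, at 113, 293 and 103 CPM, Myl4, the embryonic essential light chain, at 201, 245 and 38.3 CPM and Acta2, the smooth muscle actin of young myotubes, at 236, 358 and 187 CPM. Per count of the remaining genes, Tnnt2 and Myl4 stayed lowest in normal 3, but Actc1 and Acta2 were lowest in normal 1. The list was lowest in normal 3 and highest in normal 2 under each of 4 scalings (library totals, TMM, DESeq2 size factors and counts of the remaining genes).

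**Figure D3:**
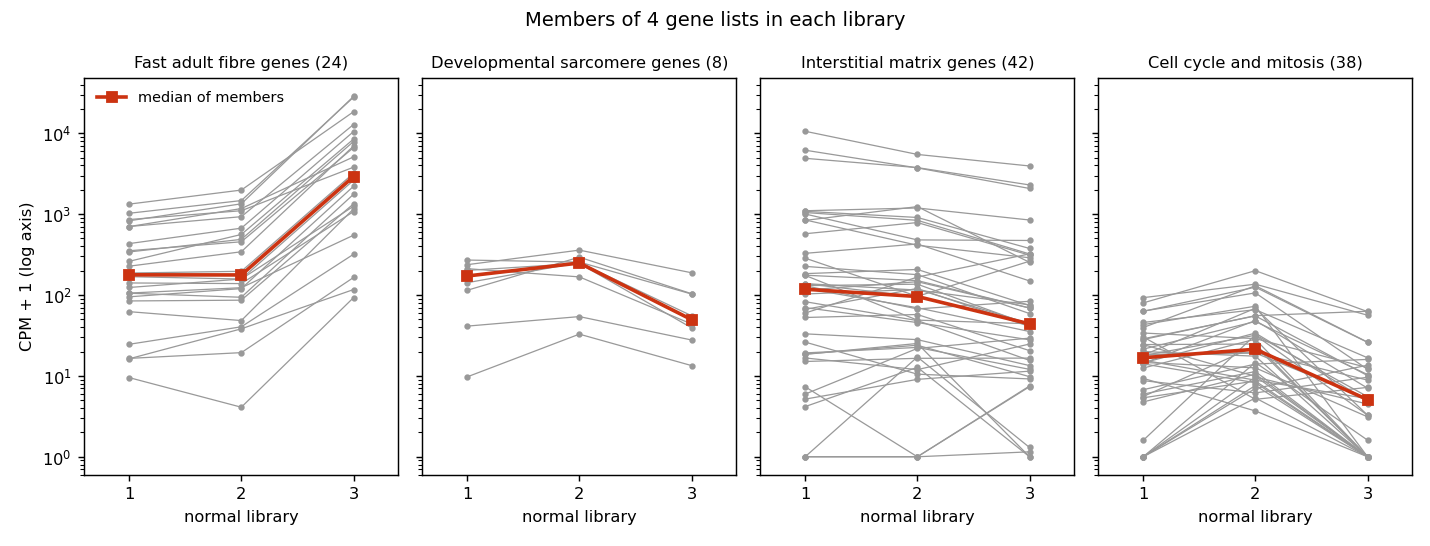
CPM + 1 (log axis) of each member (grey) of 4 gene lists in the 3 libraries, with the median of members in red and the number of members in brackets. All 24 fast fibre genes are highest in normal 3, while the developmental, interstitial matrix and cell cycle medians are lowest there on the CPM scale.

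RNA assigned to other cell types and to the Y chromosome was measured beside this difference. Y-linked genes summed to 0, 0 and 32.8 CPM, from Ddx3y at 0, 0 and 28.9 CPM and Uty at 0, 0 and 3.93 CPM, while the other 5 of the 7 listed were at 0. Xist, the long RNA of the inactive X chromosome, stood at 919, 672 and 377 CPM. Endothelial markers summed to 11.1, 21.7 and 94.9 CPM, led by Egfl7 at 3.96, 3.10 and 50.9 CPM, with 7 of 11 detected in any library and Pecam1, Tek, Tie1 and Emcn at 0. Red cell markers summed to 6.94, 19 and 44.8 CPM, with 4 of 6 detected, Hba-a1 at 6.54, 9.92 and 16.6 CPM, and Hbb-bt and Alas2 at 0. Adipocyte markers summed to 3.96, 14.5 and 61.6 CPM, with Fabp4 at 3.57, 4.75 and 47.4 CPM and Plin1 and Retn at 0. These 4 lists were highest in normal 3 under all 4 scalings, at levels far below those of the fast fibre genes, and their part in the higher fast fibre RNA of normal 3 was not tested.

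Of the other marker lists, none had its highest sum in normal 3 by library totals, and under the other 3 scalings only smooth muscle and pericyte markers did. Macrophage and leukocyte markers summed to 444, 98.5 and 110 CPM, with Cd14 at 432, 85.9 and 74.8 CPM and 8 of 15 detected and, among the others, Ptprc, Lyz2, Mrc1, C1qb, Tyrobp and Cd3e at 0. Cd14 supplied 97.4%, 87.2% and 68% of that sum, and without it the list summed to 11.7, 12.6 and 35.1 CPM, highest in normal 3, and its part in the fast fibre result was likewise not tested. Fibroadipogenic and tenocyte markers summed to 11079, 5880 and 4160 CPM, nearly all from Dcn, with Dpt and Tnmd at 0. Schwann and neural markers summed to 127, 252 and 85.5 CPM with Snap25 at 0, and osteogenic and chondrogenic markers to 266, 244 and 101 CPM, mainly Sox9, with 7 of 10 members at 0. Smooth muscle and pericyte markers summed to 1120, 1402 and 1269 CPM, of which Des, the muscle intermediate filament desmin, made up 573, 784 and 855 CPM. Because constructs were sequenced in bulk, fewer cells of a type and less RNA in each cell cannot be told apart.

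Isoform choice within families does not depend on the library total, and it separated normal 3 as well. Shares of 51 families with counts in every library were computed, and the same member led in all 3 libraries in 33 families and in normal 1 and normal 2 in 47. In 14 families normal 3 had a leader that neither of the others had. Taking the largest difference of any member, normal 3 differed from the mean of normal 1 and normal 2 by more than 10 percentage points in 31 families (median 21.7 points over all 51), and normal 1 differed from normal 2 by more than 10 points in 13 families (median 6.16 points). The exact binomial 95% interval of a member's share had a median width of 1.25 points and was widest in the caveolins, at up to 10.1 points.

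In the thick filament, the fast IIB chain Myh4 led everywhere, with 71.2%, 73.9% and 93.9% of sarcomeric myosin heavy chain counts (mean 79.7% ± 12.4, SD, n = 3). Myh3 supplied 12.1%, 13.8% and 0.179%. Myh1, the fast IIX chain, supplied 9.02%, 6.74% and 1.80%, and Myh2, the IIA chain, 5.28%, 2.61% and 3.81%. Perinatal Myh8 and slow Myh7 each stayed under 2% in every library, at 0.751%, 1.76% and 0.0409% and at 0.837%, 0.980% and 0.277%. The adult fast isoform thus led even in the libraries with the most embryonic chain. Among essential light chains, Myl1 held 51.1%, 58.7% and 88.6% and embryonic Myl4 held 23.8%, 21.5% and 0.324%. The regulatory light chains were led by the non-muscle Myl12a in normal 1 (51.5%) and by fast Mylpf in normal 2 (55.1%) and normal 3 (90.7%).

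Thin filament families showed the same order. Fast troponin I, Tnni2, held 54.6%, 61.2% and 99.3% of its pair, the rest being Tnni1. Tnnt3 held 61.3%, 67.2% and 97.3% of troponin T, with Tnnt2 at 23.5%, 18.4% and 0.773% and the slow Tnnt1 at 15.2%, 14.3% and 1.97%. Tnnc2 held 67.5%, 75.7% and 99.2% of troponin C. Actins had different leaders, with cytoplasmic Actb at 70.5%, 63.1% and 9.78% and Acta1 at 23.0%, 27.7% and 88.7%. Tpm1 led tropomyosins with 41.6%, 45.7% and 82.5%, while the cytoskeletal Tpm4 held 17.8%, 12.7% and 0.868%. For every family of the thin filament named here, normal 3 lay outside the range of normal 1 and normal 2. The direction was that of the fast member in troponins, of Acta1 in actins and of Tpm1 in tropomyosins.

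At the Z-disc, the non-muscle Actn1 led alpha-actinins in normal 1 and normal 2 (67.8% and 48.6%) and the fast fibre Actn3 in normal 3 (67.1%). The marker Actn2 held 3.02%, 2.38% and 14.6% of the family. Among myosin-binding proteins Mybph led in normal 1 and normal 2 and the fast Mybpc2 in normal 3, with Mybpc2 at 31.9%, 31.3% and 90.1%. Vim, the vimentin of myoblasts and stromal cells, led intermediate filaments in normal 1 and normal 2 (56.1% and 50.9%). Des led in normal 3 (50.9%), with Nes, the nestin of young myotubes, at 15.9%, 17.3% and 9.24%.

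Calcium stores, receptors and transporters were read in the same way. Atp2a1 held 67.4%, 77.9% and 98.1% of sarcoplasmic reticulum pumps. Casq2, the cardiac calsequestrin, led in normal 1 and normal 2 (80.6% and 83.9%) and Casq1, the skeletal form, in normal 3 (77.3%). Ryr1 held 99.6%, 96.0% and 100% of ryanodine receptor counts. The fetal acetylcholine receptor subunit Chrng dominated over the adult Chrne in all 3 libraries, with 100%, 93.1% and 89.4%, although these shares rest on only 40.2, 57.0 and 30.0 CPM for the pair. Glucose transporters were mostly Slc2a1 in normal 1 and normal 2 (98.6% and 89.7%) and mostly the insulin-regulated Slc2a4 in normal 3 (66.6%).

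Metabolic enzymes carried muscle forms to differing degrees. Ckm, the muscle creatine kinase, led in all 3 libraries with 79.6%, 91.6% and 98.2%, as did Pgam2 among phosphoglycerate mutases with 84.2%, 91.0% and 99.3% and Eno3 among enolases with 44.2%, 65.3% and 96.2%. The shares of Pgam2 and Eno3 carry the counting limit given below for genes with few counts. Phosphofructokinase was mostly the liver-type Pfkl in normal 1 and normal 2 (65.6% and 70.6%) and the muscle-type Pfkm in normal 3 (77.6%). Cytochrome oxidase subunit 6a was split between Cox6a2, the striated muscle form, and Cox6a1 in normal 1 and normal 2, with Cox6a2 at 53.3% and 39.1%, and was 97.8% Cox6a2 in normal 3. Cox8a, the common form of subunit 8, held 87.8%, 86.2% and 22.6%. Translation elongation factor 1 alpha was nearly all Eef1a1 in normal 1 and normal 2 (97.3% and 95.1%), and Eef1a2, the form of muscle and neurons, led in normal 3 (57.3%). Lactate dehydrogenase was nearly all Ldha, with 92.1%, 97.9% and 96.7%.

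**Figure D4:**
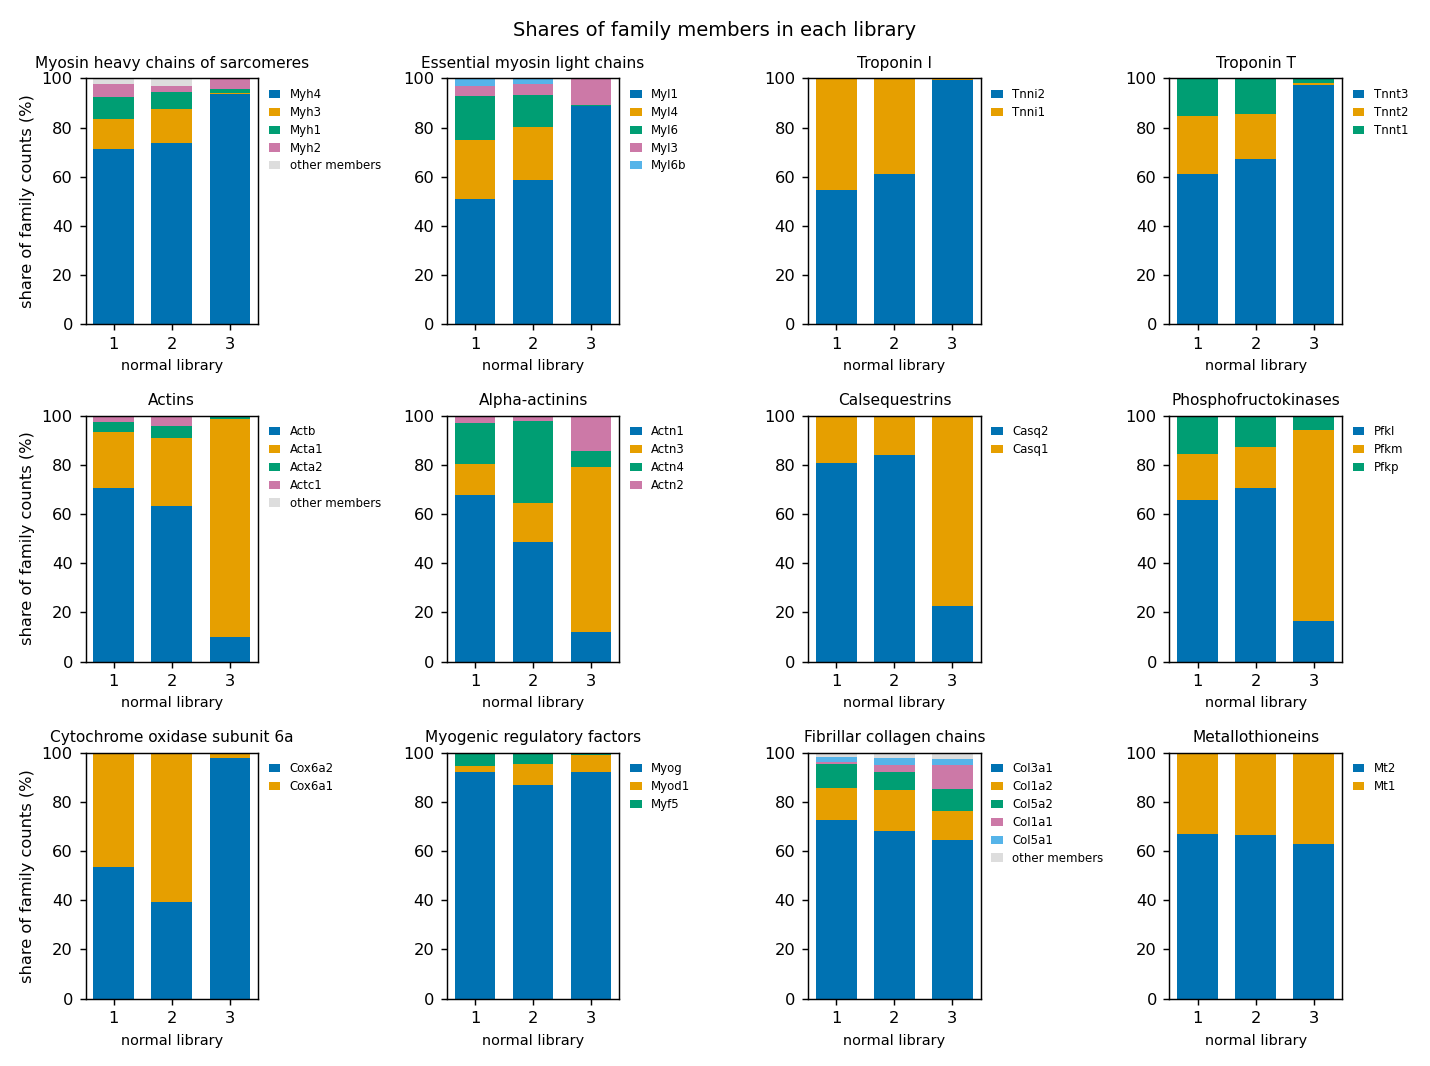
Share of family counts (%, vertical axis) of the members of 12 families in normal 1, 2 and 3 (horizontal axis). In normal 3 most muscle families consist largely of 1 adult member, for example Tnni2 with 99.3% against 54.6% and 61.2%, while Myog, Col3a1 and Mt2 keep similar shares in all 3 libraries.

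In some families the leading member held a similar share in every library, and the 7 given here were picked after their values were seen. Other families outside the sarcomere, such as those of phosphofructokinase and cytochrome oxidase subunit 8 above, differed as widely as sarcomeric ones. Cdkn1a, which encodes the cell cycle brake p21, held 87.2%, 88.1% and 87.8% of its family (mean 87.7% ± 0.459, SD, n = 3). Mt2 held 67.0%, 66.5% and 62.7% of metallothionein counts, S100a4 held 71.1%, 68.9% and 66.9% of S100 counts, and Lgals1 held 63.4%, 67.5% and 60.7% of galectins. Itgb1 made up 81.1%, 81.7% and 88.3% of beta integrins, Timp2 made up 78.0%, 77.0% and 85.6% of metalloprotease inhibitors, and Myh9 made up 82.6%, 82.7% and 80.2% of non-muscle myosin heavy chains. For these 7 genes, the libraries that differed most in muscle RNA gave shares within 10 points of each other.

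Among transcription regulators, Myog held 92.3%, 86.8% and 92.0% of myogenic factor counts (mean 90.4% ± 3.07, SD, n = 3). Myod1 held 2.40%, 8.56% and 7.10% and Myf5 held 5.29%, 4.59% and 0.887%. Myf6, the factor of mature fibres also called MRF4, had no count in any library. Mef2c led the MEF2 factors with 46.9%, 57.0% and 88.4%, at 175, 143 and 970 CPM. Id inhibitors, which bind E proteins away from myogenic factors, were led by Id3 in normal 1 and normal 2 (43.9% and 66.7%) and by Id2 in normal 3 (44.8%). Myogenin was thus the main member of its family in each library, including normal 3, where its level was lowest by library totals but not by the remaining counts (267, 541 and 278 CPM) or by TMM totals (151, 301 and 152 CPM), on which normal 1 and normal 3 were nearly level.

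Genes of stem cells, fusion and the neuromuscular junction were present at moderate levels. Of 30 stem cell and myoblast regulators 27 were detected in each library, with Sdc4 at 567, 500 and 208 CPM and the satellite cell factor Pax7 at 11.5, 11.6 and 5.90 CPM. The list summed to 2690, 2470 and 2005 CPM by library totals, but under the other 3 scalings normal 3 was highest. Mymk, the membrane protein myomaker that drives myoblast fusion, had 156, 126 and 37.8 CPM, and its partner Mymx had 16.6, 22.1 and 21.5 CPM. The fusion list of 20 genes summed to 1836, 1554 and 924 CPM and was lowest in normal 3 under all 4 scalings, with Adgrb1, Adgrb3 and Stab2 at 0. Junction genes summed to 610, 832 and 243 CPM, and 10 of 13 were highest in normal 2, among them Chrna1, the muscle receptor alpha subunit, at 193, 282 and 78.4 CPM, and Ncam1 at 261, 344 and 63.0 CPM. Dystrophin complex genes summed to 1166, 1016 and 824 CPM, an order that flipped under the other 3 scalings, where normal 3 was highest.

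Cell cycle genes were highest in normal 2. Their sum was 812, 1475 and 369 CPM, or 0.118%, 0.232% and 0.0933% of the remaining counts, and 26 of 38 members were highest in normal 2, an order that held under all 4 scalings. All 38 were detected in normal 2, 33 in normal 1 and 25 in normal 3. Over all symbols the order was the same, with 14159, 12638 and 11329 detected in normal 2, normal 1 and normal 3. Of the 2595 named genes 36.2% were highest in normal 2, but only 5 of the 38 reached their abundance. Neither count was set beside symbols of like level. Top2a, the topoisomerase of dividing cells, stood at 78.9, 199 and 61.3 CPM, Cenpf, a kinetochore protein, at 38.6, 129 and 25.1 CPM, Mcm7, a replication helicase subunit, at 61.8, 124 and 25 CPM and Ccnd1, cyclin D1, at 91.8, 135 and 55.2 CPM. These levels were below that of Cdkn1a, at 935, 1240 and 362 CPM. Cdkn2a, which encodes p16 and p19 Arf, had no count in any library.

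Matrix genes were abundant in every library and in sum highest in normal 1. The 42 interstitial matrix genes summed to 30840, 21264 and 12759 CPM, or 4.49%, 3.35% and 3.22% of the remaining counts, so that normal 2 and normal 3 were nearly level on that scale. In sum, normal 1 was highest under all 4 scalings. By CPM, 19 of the 42 members were highest in normal 1, 15 in normal 2 and 8 in normal 3. After Dcn, Col3a1 and Sparc came Fn1, fibronectin, at 1100, 1190 and 844 CPM and Col1a2 at 1081, 908 and 375 CPM. Basement membrane genes summed to 6466, 5027 and 3072 CPM, of which Sparc was 4895, 3758 and 2294, and the laminin chain Lamb1 stood at 501, 360 and 213 CPM. Col4a5, Lama1 and Frem1 were at 0. Matrix enzymes and inhibitors summed to 11052, 8452 and 5143 CPM, led by Timp2 at 3213, 2476 and 1979 CPM, the membrane protease Mmp14 at 1498, 1043 and 632 CPM, the gelatinase Mmp2 at 1272, 943 and 531 CPM and the collagen cross-linker Lox at 447, 550 and 225 CPM. Per count of the remaining genes, Fn1 and Timp2 were highest in normal 3.

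In the matrix, fibrillar collagens, laminin alpha chains and collagen VI had the same leading chain in all 3 libraries. Col3a1 supplied 72.7%, 68% and 64.6% of fibrillar collagen counts (mean 68.4% ± 4.09, SD, n = 3), Col1a2 12.7%, 16.6% and 11.7% and Col5a2 9.98%, 7.50% and 8.95%. Col1a1, whose protein joins Col1a2 chains in type I collagen, supplied only 0.694%, 3.02% and 10.0%. Lama4 made up 84.4%, 91.1% and 85.8% of laminin alpha chains and Col6a3 made up 47.9%, 53.4% and 51.5% of collagen VI chains. Collagen IV was led by Col4a1 in normal 1 (62.4%) and normal 2 (49.7%) and by Col4a2 in normal 3 (56.9%). The leading thrombospondin was Thbs1 in normal 1 (73.6%) and normal 3 (82.0%) and Thbs2 in normal 2 (53.0%).

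The most abundant secreted factors listed were chemokines, with Cxcl5 and Cxcl1 first and second by mean. The 33 listed cytokines and growth factors summed to 6920, 4709 and 2904 CPM. Of these, 19 were highest in normal 1, as were 52.6% of the 2595 named genes, so the count does not set the list apart. In sum, the list was highest in normal 1 under all 4 scalings. Cxcl5 and Cxcl1, both neutrophil-attracting chemokines, stood at 3067, 2371 and 1476 CPM and at 1811, 757 and 520 CPM, Il6 stood at 451, 135 and 202 CPM, the satellite cell activator Hgf at 257, 352 and 166 CPM and Vegfa at 233, 108 and 86.6 CPM. In the IGF pathway, Igfbp4 and Igfbp5 had 686, 881 and 333 CPM and 413, 390 and 209 CPM. Of the activin pathway, Inhba, the activin A subunit, had 664, 219 and 249 CPM and Fstl1 had 978, 784 and 563 CPM, while Mstn, myostatin, was found in normal 2 only (36 counts, 7.44 CPM).

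Single genes also set normal 1 or normal 2 apart from both other libraries. The 6 genes with the highest ratio of normal 1 to the higher of the others were Rnase2a, a secreted ribonuclease, at 125, 14.0 and 20.4 CPM, the lipopolysaccharide receptor Cd14, given above, Ptgs2, the inducible cyclooxygenase, at 1229, 247 and 244 CPM, the growth factor Pgf at 128, 8.26 and 26.2 CPM, the iron-carrier binding Lcn2 at 314, 66.7 and 67.6 CPM and the transcription repressor Prdm1 at 141, 31.8 and 22.2 CPM. For normal 2 they were Cyp2f2 at 21.0, 123 and 17.4 CPM, the chemokine Cxcl12 at 39.8, 286 and 73.9 CPM, Cenpf, Casp12 at 32.9, 106 and 16.5 CPM, the cohesin regulator Pds5b at 37.1, 111 and 32.8 CPM and Serpinb1a at 35.1, 105 and 28.9 CPM. Genes over 2-fold above the higher of the others numbered 125 in normal 1, 50 in normal 2 and 118 in normal 3 among the 2595, but genes over 5-fold numbered 2, 1 and 55.

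Metabolic lists had their highest sums in normal 3, and proteolytic lists had no fixed order. Glycolysis genes summed to 2893, 2882 and 6478 CPM, with Pkm at 853, 1062 and 2143 CPM and Tpi1 at 339, 293 and 334 CPM. By CPM, 10 of the 19 detected members were highest in normal 1, 2 in normal 2 and 7 in normal 3. Member ratios of normal 3 to normal 1 had a median of 0.947 (maximum 64.0), and those to normal 2 a median of 1.14. By CPM, then, the higher glycolysis sum of normal 3 did not extend to most members. On the same scale the 2612 symbols of at least 50 CPM had a median log2 difference of -0.90 between normal 3 and normal 1. Between normal 3 and normal 2 it was -0.73, and 11.1% of named genes were highest in normal 3. Both medians of glycolysis members thus lay above those of symbols in general, and member ratios under other scalings are not given. The 57 matched genes of the nuclear-encoded respiratory chain summed to 5645, 7424 and 9017 CPM, in contrast with the mitochondrially encoded ND4, and Cox6c, its second most abundant member, stood at 281, 430 and 561 CPM. Proteasome genes summed to 4514, 4393 and 3116 CPM and atrophy genes, with the cathepsins Ctsl at 652, 500 and 189 CPM and Ctsd at 483, 405 and 327 CPM, to 2921, 2510 and 1999 CPM. Under the other 3 scalings both the proteasome and the atrophy list were highest in normal 3, so no direction holds for them. Over all 30 lists, normal 3 was lowest in 18 by library totals but in 8 under all 4 scalings, and highest in 10 under all 4.

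A symbol at 0 here does not show an absent RNA. Some genes of nearly all cells were at or close to 0, and they are named because they were seen to be so. Aldoa, the aldolase of muscle, and the mitochondrial ATP6, ATP8, COX2 and COX3 had no count in any library, Actg1, gamma actin, had 8.52, 10.1 and 11.7 CPM, and Gapdh had 89.6, 70.6 and 108 CPM. In consequence the mitochondrial, aldolase and actin shares cover only the members that were counted, and the cause was not tested. Eno1, set against Eno3 above, had only 173, 221 and 107 counts, and Pgam1, set against Pgam2, had 79, 41 and 62. Whether counting lowered these was not tested, so the enolase and phosphoglycerate mutase shares carry the same limit. Among symbols of at least 50 CPM on average, 2 had no count in a library: Sh3bgr in normal 1 (0, 24.6 and 175 CPM) and Lrrc30 in normal 2 (8.72, 0 and 164 CPM).

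Spread between the libraries far exceeded counting error. For the 2114 symbols of 50 to 200 CPM, the median coefficient of variation (CV) over the 3 libraries was 41.0%, against 4.78% from counting alone and 19.2% between normal 1 and normal 2. The 442 symbols of 200 to 1000 CPM had 40.8%, 2.46% and 15.3% in the same order, and the 56 above 1000 CPM had 51.2%, 0.876% and 18.1%. Across 16588 symbols, Pearson's r of log2(CPM + 1) was 0.800 for normal 1 with normal 2, 0.732 for normal 1 with normal 3 and 0.739 for normal 2 with normal 3, with Spearman's rho at 0.793, 0.712 and 0.716. Genes are not independent replicates, so these values are descriptions. The chi-square per gene was 32.6, 246 and 216 for these pairs, measured against counting noise that takes reads as independent.

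On the CPM scale 8 genes had the lowest CV. Cox6b1, a cytochrome oxidase subunit, had 130, 132 and 128 CPM, a CV of 1.72%. Rps20, a ribosomal protein, had 737, 715 and 740 CPM (CV 1.86%), and Atp6v1f, a subunit of the vacuolar proton pump, 166, 175 and 173 CPM (CV 2.54%). Prpf19, Sod1, Fkbp4, Hspa9 and Tmem65 had CVs of 2.59% to 3.19%. With TMM-scaled totals (factors 1.21, 1.14 and 0.722) the same 8 genes had CVs of 27.0% to 31.3%, and 0 of them were among the 8 steadiest, so which genes look constant depends on the scaling.

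The distribution of low counts had a gap. After a peak at 1 count (377, 344 and 360 symbols), the number of symbols per count value dipped before a second peak near 22, 12 and 28 counts, over windows of 5 values. Symbols with 1 to 4 counts were 5.30%, 5.13% and 5.91% of those detected. The cause was not tested. Where reads are not independent molecules, counting intervals are too narrow and detection at low levels is less certain than the counts show.

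**Figure D5:**
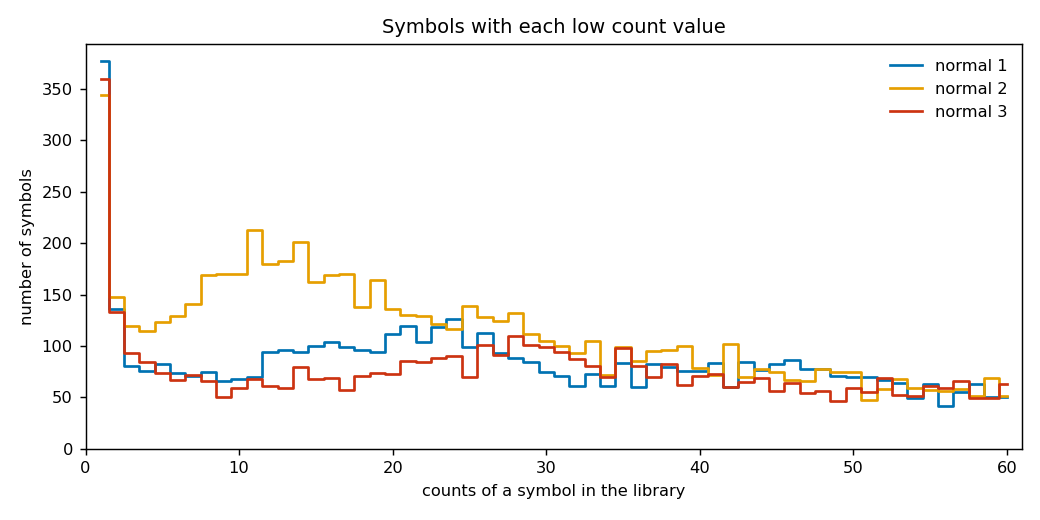
Number of symbols (vertical axis) with each count from 1 to 60 (horizontal axis) in each library. After the spike at 1 count the curves dip and form a second peak, near 12 counts in normal 2, 22 in normal 1 and 28 in normal 3.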

How the data were processed

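RNA of 3 normal constructs was profiled with the QuantSeq 3′ FWD kit from 100 ng of total RNA and 75 bp single-end reads, per the labels' protocols. The authors deposited whole-number counts per gene symbol, not normalized, 1 file for each library. The submitters' processing notes name GRCm39, also as mm39, and list HTSeq, STAR and FastQC. The sources used here do not state versions, annotation, strand setting or duplicate treatment, so near-identical, overlapping or antisense genes may share reads. Samples were grouped by title. The number in each file's column name is 1 above that of the title.

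From the counts, CPM, ranks, class and family shares with exact binomial 95% intervals, list sums, CVs and correlations (pseudocount 1) were computed with Python 3.11.15, pandas 2.3.3, numpy 2.4.6 and scipy 1.17.1. With 1 group there is no comparison between groups and no test. A count of 0 allows up to 3 counts. The 52 families and 30 lists (819 of 840 entries matched a symbol) and the members were chosen with earlier results of these data known. Named genes were the 20 most abundant, 4 markers, family leaders and members of at least 5%, up to 4 members per list and those at 0, the 8 steadiest, 6 per library by ratio and those at 0 in 1 library, the last 3 rules among symbols of at least 50 CPM. Some genes that the rule names are not reported here. Genes named outside this rule are pathway members or are said to be so, and were chosen after their values were seen. Promoters are from RefSeq, all 4 matched by symbol, and no protein sequence was used. TMM factors (edgeR 4.0.16) and size factors (DESeq2 1.42.0, R 4.3.3) served as alternative scalings. The calculations were tested on simulated data. Figures were drawn with matplotlib 3.10.9.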

Additional observations from a re-analysis of the deposited data

How the results depend on the processing

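Over 29 results, 135 alternative values were computed, of which 111 moved by less than 1 SD of the 3 libraries (or, for counts, stayed within 1.5 times) and 24 moved further. The SD is wide because of normal 3, so a value can stay within it and still change much: without normal 3, mean shares were 1.89% instead of 8.35% for contractile genes, 2.53% instead of 9.86% for other mitochondrial genes and 3.72% instead of 3.10% for matrix genes, so that matrix and contractile genes change places, and the fast fibre sum was 9941 instead of 57544 CPM. With Gm26917 and mitochondrial genes left out of the total, mean shares were 4.66% for matrix genes, 3.50% for ribosomal protein genes and 2.15% for long RNAs, and without contractile genes as well, an alternative chosen after seeing the data, 5.31%, 3.98% and 2.54%. The first of these totals kept 13 of the top 20 and gave sums of 1727 CPM for developmental sarcomere genes, 32399 for interstitial matrix, 7261 for secreted factors and 6383 for glycolysis. Summing the 3 libraries gave 92.4% Myh4 and 1.06% Myh3. With 1 library left out, the top 20 kept 13 to 18 symbols and the median CV of symbols of at least 50 CPM was 18.4% to 48.3%, both lowest without normal 3. Pearson's r for normal 1 with normal 2 was 0.846 at 1 CPM or more in each library, 0.863 at a mean of 50 CPM, 0.759 at pseudocount 0.5 and 0.879 at 5. For normal 1 with normal 3 it was 0.629 at a mean of 50 CPM and 0.801 at pseudocount 5, and for normal 2 with normal 3 it was 0.660 at 50 CPM, 0.701 at pseudocount 0.5 and 0.812 at 5. No paired analysis was possible because a single group was described and no test was made.

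With 3 libraries, of which normal 3 differs widely, means and SDs describe a mixed set, and the values of each library are the firmer ones.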
